A study of Mus musculus with 16 samples.

Results

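Messenger RNA levels of 10 genes for chemokines and macrophage growth factors were measured in the kidneys of mouse pups with and without Aqp11. The genes were Ccl2, Ccl7, Ccl6, Ccl9, Cxcl1, Cxcl10, Cxcl16, Cx3cl1, Csf1 and Il34. Every probe set annotated with 1 of these symbols was taken, which gave 21 of the 45101 probe sets on the array and 10 of the 18194 genes named. Aqp11-/- pups (n = 9, 5 males and 4 females) were compared with Aqp11+/+ littermates (n = 7, 3 males and 4 females), all aged 7 days and labelled C57BL/6J, with 1 Affymetrix mouse whole-genome array for the kidney RNA of each animal. Both genotypes came from matings of Aqp11+/- mice, 5 breeding pairs in all. The allele was made in a 129/SvEvBrd background and then crossed repeatedly into C57/BL6. The labels name no Cre and no tissue restriction for the allele. Aquaporin-11, the product of Aqp11, is a channel protein of intracellular membranes, and the study asks what the kidney expresses without it. None of the 10 genes lies on chromosome 7 with Aqp11: Ccl2, Ccl7, Ccl6, Ccl9 and Cxcl16 lie on chromosome 11, Cxcl1 and Cxcl10 on chromosome 5, Cx3cl1 and Il34 on chromosome 8, and Csf1 on chromosome 3.

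Chemokines are small proteins that direct the movement of leukocytes through receptors coupled to G proteins. Ccl2 and Ccl7 bind Ccr2 and draw monocytes from the blood, Ccl6 and Ccl9 bind Ccr1, Cxcl1 binds Cxcr2 on neutrophils, and Cxcl10, an interferon-induced chemokine, binds Cxcr3. Cxcl16 and Cx3cl1 are made as membrane-anchored proteins that proteases of the Adam family release, and their receptors are Cxcr6 and Cx3cr1. Csf1 and Il34 are the ligands of Csf1r, through which macrophages survive, divide and mature. In the kidney, injured tubule cells are known to make Ccl2 and Csf1, and resident macrophages carry Csf1r and Cx3cr1.

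The promoters below are those whose 250 bases before the start site held a match to a kappa B motif, the sequence bound by the NF-kB factors that many chemokine genes answer to. They come from RefSeq on build GRCm38.p6, and 6 of the 10 genes had an entry there (Csf1, Cxcl1, Cxcl10, Cx3cl1, Ccl9 and Ccl6). Each is written 5′ to 3′ on its gene's strand, with motif matches in capitals. They lie at chr5:92348890-92349139 (minus strand) for Cxcl10, chr5:90890995-90891244 (plus strand) for Cxcl1, chr3:107760470-107760719 (minus strand) for Csf1 and chr11:83578637-83578886 (minus strand) for Ccl9.
Cxcl10: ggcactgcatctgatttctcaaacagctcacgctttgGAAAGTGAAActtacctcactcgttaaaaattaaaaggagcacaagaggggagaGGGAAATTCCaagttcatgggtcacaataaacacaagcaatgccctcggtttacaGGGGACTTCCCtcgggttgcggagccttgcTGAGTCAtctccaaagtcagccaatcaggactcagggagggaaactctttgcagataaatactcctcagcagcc
Cxcl1: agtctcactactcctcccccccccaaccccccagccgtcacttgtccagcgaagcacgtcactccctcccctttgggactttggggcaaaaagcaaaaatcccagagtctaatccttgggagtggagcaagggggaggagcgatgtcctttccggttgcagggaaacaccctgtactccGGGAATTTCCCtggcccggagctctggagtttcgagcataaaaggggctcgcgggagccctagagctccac
Csf1: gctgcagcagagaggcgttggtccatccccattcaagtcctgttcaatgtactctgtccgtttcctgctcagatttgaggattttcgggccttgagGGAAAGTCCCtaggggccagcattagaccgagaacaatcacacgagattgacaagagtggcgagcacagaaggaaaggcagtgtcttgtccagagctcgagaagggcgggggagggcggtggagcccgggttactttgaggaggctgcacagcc
Ccl9: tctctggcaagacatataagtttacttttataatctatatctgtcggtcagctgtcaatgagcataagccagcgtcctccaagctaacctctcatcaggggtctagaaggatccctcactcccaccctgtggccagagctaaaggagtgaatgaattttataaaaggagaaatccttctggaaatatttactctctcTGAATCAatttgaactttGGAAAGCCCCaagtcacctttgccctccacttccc

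Counted back from the start site, Cxcl10 held kappa B matches at -159 to -150 and at -104 to -94, an interferon-stimulated response element (GAAA, any 2 bases, then GAAA) at -213 to -204 and an AP-1 motif (TGANTCA) at -74 to -68. Cxcl1 held 1 kappa B stretch, from -71 to -61, made of overlapping matches on both strands. In Csf1 the match lay on the opposite strand at -154 to -145. Ccl9 held an AP-1 motif at -53 to -47 and a kappa B match on the opposite strand at -35 to -26. None of the 3 motifs was found in the windows of Cx3cl1 and Ccl6. Both strands were searched, and matches to different motifs did not overlap. A kappa B match was present in 4 of the 6 promoters and in 7.25% of the 32851 promoters of the same length in the table, the response element in 1 of 6 and 2.98%, and the AP-1 motif in 2 of 6 and 6.75%. A match of letters is a description and does not show that a factor binds there.

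The arrays followed their genotype labels on the brightest Aqp11 probe set. It had a log2 signal between 2.78 and 3.69 in knockout kidneys, with 7 of 9 arrays at the floor set on low signals, against 7.72 to 8.11 in wild-type kidneys. This was at least 30.3-fold lower in the knockout (limma adjusted p = 7.78e-14), and the log2 difference of -4.92 was -3.30 with the floor raised to the 40th percentile. These values are from 1429254_at, the brightest of its 3 probe sets. On 1447606_x_at the signal was 2.78 to 5.25 in knockout kidneys and 4.46 to 5.89 in wild-type kidneys, which overlapped, with a log2 difference of -1.75 (adjusted p = 0.00351). The third, 1455846_at, was too dim to test, at -1.28, and the mean of the probe sets gave -2.65. Signals were quantile normalized, since the trimmed mean signal of the deposited arrays ran from 111 to 236, and values under 2.78 in log2 were set to that floor. The number of arrays limits the precision. Wild-type arrays 2-1 and 2-2 stood apart from the other wild-type arrays in the level of macrophage and neutrophil markers, as described below beside those markers, and results were also computed without them. Lrp2 and Slc34a1 of the proximal tubule and Aqp2 of the collecting duct, which identify kidney, averaged 11.32, 11.35 and 11.05 in knockout kidneys, against 11.94, 11.98 and 10.15 in wild-type kidneys. A probe set entered the test when 7 or more of the 16 arrays held it above their 40th percentile, which was so for 27377, and 3195 of them differed between genotypes (11.7%).

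All chemokine and growth factor genes in the set except Ccl7, which was too dim to test, had at least 1 probe set with a higher signal in knockout kidneys, and no probe set was lower. With the floor used here, the largest differences were those of the monocyte chemoattractant Ccl2, at least 7.35-fold higher, and of Ccl9, 5.52-fold higher on its brightest probe set. Their order depended on the floor. With the floor at the 40th percentile the log2 difference of Ccl2 fell from 2.88 to 1.80. That of the brightest Ccl9 probe set stayed at 1.97 or more in every alternative. The membrane-anchored chemokines Cxcl16 and Cx3cl1 were 2.28-fold and 2.43-fold higher, and the Csf1r ligands Csf1 and Il34 1.84-fold and 2.53-fold higher. In RNA from whole kidney, more cells of a type and more RNA per cell cannot be told apart.

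Of the 21 probe sets, 19 were tested. Among these 17 were higher in knockout kidneys, 0 were lower and 2 did not pass (limma, Benjamini-Hochberg adjusted p under 0.05 over all 27377 probe sets). Over all probe sets tested, 6.21% were higher and 5.46% lower. Taking the brightest probe set of each gene, 8 of 9 tested genes were higher, against 8.44% of 12499 genes higher and 7.3% lower. The median log2 difference, knockout minus wild type, was 1.32 over the 19 tested probe sets and -0.008 over all probe sets tested. In 14 of the 19, every knockout array lay above every wild-type array, which was so for 2.06% of all probe sets tested and for 2.91% of genes by brightest probe set. The genes were chosen with earlier results of these data known, so their shares are a description and not a test of enrichment. Of the 19, 10 exceeded the 40th percentile on all 16 arrays and 7 did so on fewer than 4 wild-type arrays. These 7 entered the test mainly through knockout arrays, and their counts describe the fit without adding support to it. They were Ccl2, the dimmer probe sets of Ccl6 and Ccl9, Cxcl1 1457644_s_at and 1419209_at, Cx3cl1 1421610_at and Csf1 1425155_x_at. Signals of different probe sets are not comparable as levels, and only differences within a probe set are compared here.

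**Figure D1:**
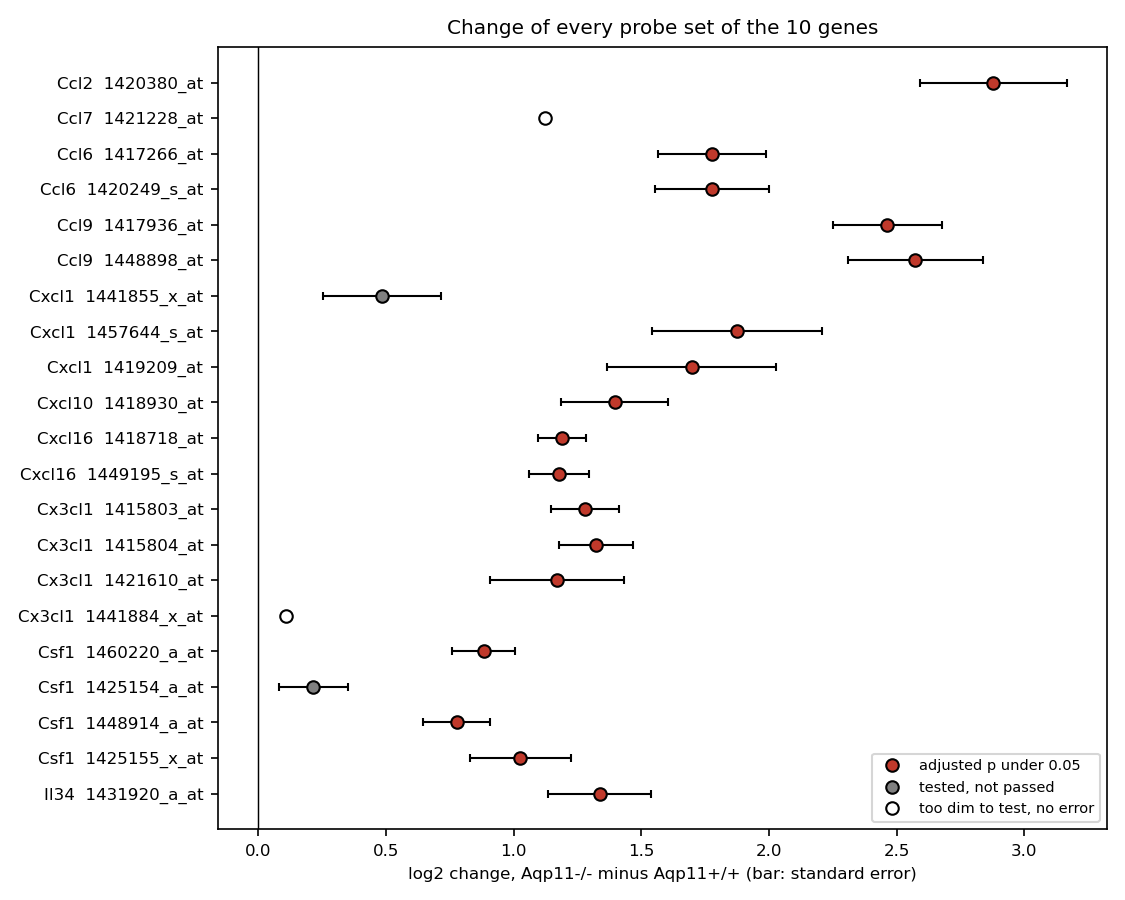
Log2 difference (knockout minus wild type, horizontal axis) of each of the 21 probe sets, with the standard error from limma as the bar; filled red points have an adjusted p under 0.05, grey points were tested and did not pass, open points were too dim to test. The 17 red points lie between 0.78 and 2.88, and the largest is Ccl2.

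Among the CC chemokines, Ccl2 had a lowest, median and highest log2 signal of 5.42, 6.45 and 6.73 in knockout kidneys, against 2.78, 3.11 and 4.74 in wild-type kidneys. All 9 knockout arrays lay above all wild-type arrays, 3 of which were at the floor. The mean was 6.39 ± 0.39 (SD, n = 9) in knockout and 3.51 ± 0.85 (SD, n = 7) in wild type, a log2 difference of 2.88 with a standard error of 0.29 (limma adjusted p = 6.74e-07). The difference was 1.80 with the floor raised to the 40th percentile and 1.93 on a log2(value + 16) scale without a floor, and Ccl2 passed in both. Ccl2 exceeded that percentile on 9 knockout arrays and 1 wild-type array. It therefore entered the test mainly through knockout arrays, and its p values are a description. An exact permutation of the genotype labels over all 11440 assignments gave p = 8.74e-05 (two-sided), the smallest these group sizes allow, as it did for each probe set whose groups did not overlap. Ccl7, a close relative of Ccl2, also binds Ccr2. Its single probe set ran through 3.08, 3.91 and 5.00 in knockout kidneys and through 2.78, 2.78 and 3.58 in wild-type kidneys, where 5 of 7 arrays lay at the floor. It exceeded the 40th percentile on 2 arrays and so was not tested in the fit. Its log2 difference was 1.12, and 8 of 9 knockout arrays lay above the highest wild-type array (exact permutation p = 0.000787, two-sided). When every probe set was tested with no filter, Ccl7 passed (limma adjusted p = 0.00604).

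The Ccr1 ligand Ccl6, a chemokine of mouse myeloid cells, had 6.52, 7.04 and 7.92 as lowest, median and highest log2 signal in knockout kidneys on its brighter probe set, against 4.69, 5.09 and 6.01 in wild-type kidneys. The groups did not overlap. Wild-type arrays 2-1 and 2-2 stood at 6.01 and 5.99, above the 4.69 to 5.23 of the other wild-type arrays. The log2 difference was 1.78 ± 0.21 (standard error, limma adjusted p = 6.93e-06), 3.43-fold, and it was 2.06 without those 2 arrays. On the dimmer probe set of Ccl6 the difference was 1.78 ± 0.22 (adjusted p = 1.16e-05), again without overlap. That probe set ran from 5.29 to 7.13 in knockout kidneys and from 3.69 to 4.33 in wild-type kidneys. It exceeded the 40th percentile on 9 knockout arrays and 0 wild-type arrays. It entered the test through the knockout arrays alone and had to differ, so its values are a description. Ccl9, which binds Ccr1 too, had 6.85, 7.12 and 8.22 in knockout kidneys, against 4.42, 4.80 and 5.47 in wild-type kidneys. Every knockout array lay above every wild-type array. The mean was 7.35 ± 0.51 (SD, n = 9) in knockout and 4.89 ± 0.43 (SD, n = 7) in wild type, a log2 difference of 2.46 with a standard error of 0.21 (limma adjusted p = 8.78e-08). The second Ccl9 probe set gave 2.57 ± 0.27 (adjusted p = 1.01e-06), at least 5.95-fold, with 1 wild-type array at the floor. That value was 1.84 with the floor at the 40th percentile. This probe set exceeded that percentile on 9 knockout arrays and 1 wild-type array, so it entered the test mainly through knockout arrays.

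**Figure D2:**
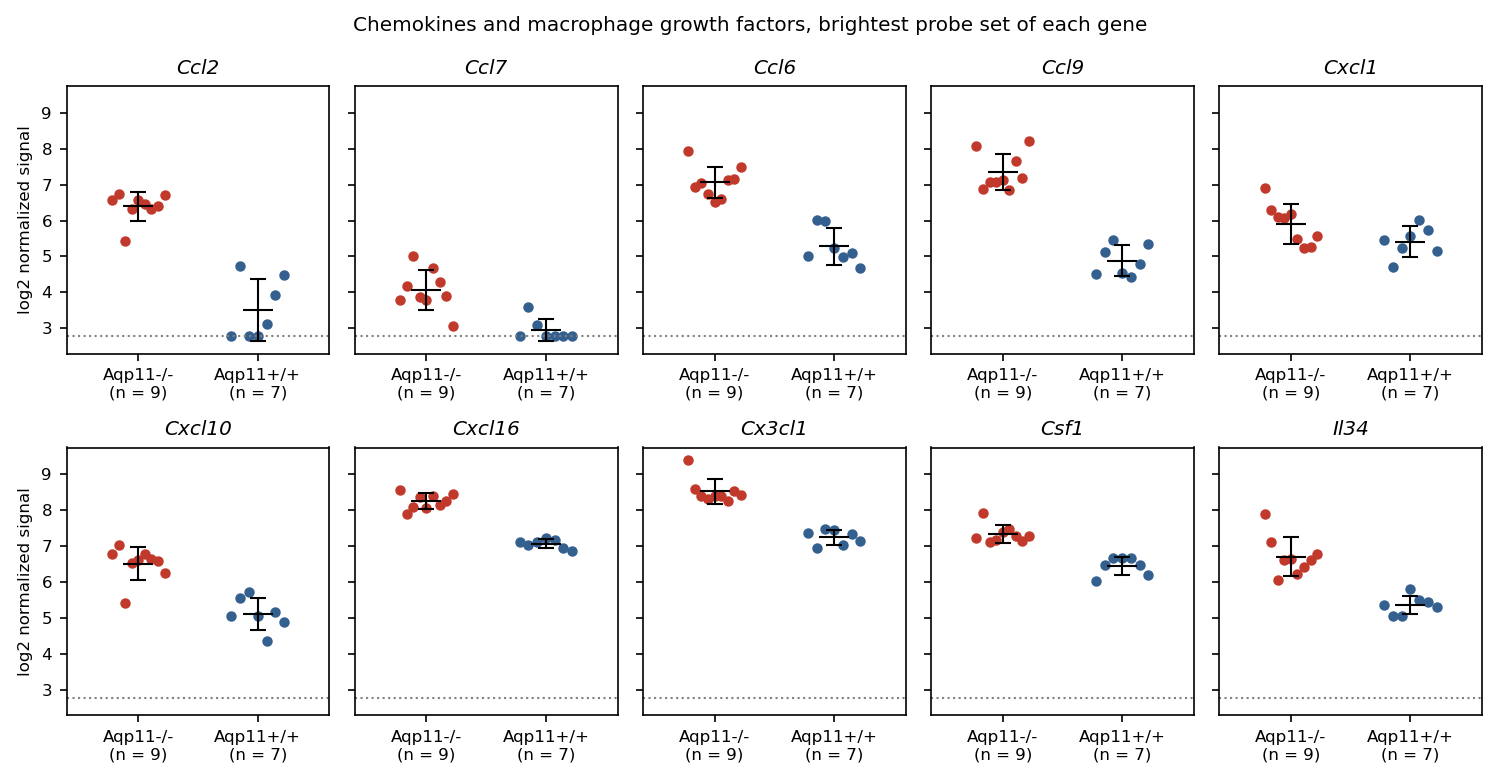
Log2 normalized signal (vertical axis) of the brightest probe set of each gene in every array, knockout on the left (red, n = 9) and wild type on the right (blue, n = 7); the bar is the mean with its SD and the dotted line is the floor at 2.78. Knockout and wild-type arrays are apart for Ccl2, Ccl6, Ccl9, Cxcl16, Cx3cl1, Csf1 and Il34, and overlap for Ccl7, Cxcl1 and Cxcl10.

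For the CXC chemokines the probe sets disagreed on Cxcl1, a neutrophil attractant. The brightest of its 3 probe sets, 1441855_x_at, had 5.23, 6.08 and 6.90 in knockout kidneys, against 4.70, 5.45 and 6.02 in wild-type kidneys. The groups overlapped, with 5 of 9 knockout arrays above the highest wild-type array, and the log2 difference of 0.49 ± 0.23 did not pass (limma adjusted p = 0.21). The ending x_at marks probes that can also bind related transcripts. On 1457644_s_at the signal was 5.59, 6.36 and 6.89 in knockout kidneys and 2.82, 4.26 and 5.48 in wild-type kidneys. There the groups did not overlap, and the log2 difference was 1.87 ± 0.33 (adjusted p = 0.000555), 3.67-fold. The third probe set, 1419209_at, had 4.71, 5.58 and 6.66 in knockout kidneys, against 2.78, 4.27 and 4.86 in wild-type kidneys. In it 8 of 9 knockout arrays lay above the highest wild-type array, and 2 wild-type arrays were at the floor. Its log2 difference was 1.70 ± 0.33 (adjusted p = 0.00139), at least 3.24-fold, and it was 0.97 with the floor at the 40th percentile. Each Cxcl1 probe set that passed exceeded that percentile on 9 knockout arrays and 3 wild-type arrays, and so entered the test mainly through knockout arrays. The one that did not pass exceeded it on all 16 arrays. The mean of the 3 probe sets gave 1.35 for Cxcl1 (limma adjusted p = 0.000147 over genes).

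Cxcl10, the interferon-induced chemokine, had 5.41, 6.61 and 7.03 as lowest, median and highest log2 signal in knockout kidneys, against 4.36, 5.05 and 5.72 in wild-type kidneys. Knockout array 2-4, at 5.41, was within the wild-type range, and the other 8 knockout arrays, from 6.24, lay above it. The mean was 6.51 ± 0.46 (SD, n = 9) in knockout and 5.11 ± 0.45 (SD, n = 7) in wild type. That is a log2 difference of 1.40 with a standard error of 0.21 (limma adjusted p = 9.72e-05), 2.63-fold.

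Both membrane-anchored chemokines were higher on every probe set tested. Cxcl16, which also serves as a scavenger receptor, had 7.90, 8.25 and 8.56 in knockout kidneys, against 6.85, 7.10 and 7.22 in wild-type kidneys. The spread within each genotype was narrow, with SDs of 0.21 and 0.13, and the groups did not overlap. Its log2 difference was 1.19 ± 0.09 (limma adjusted p = 2.55e-08), 2.28-fold, and the second probe set gave 1.18 ± 0.12 (adjusted p = 6.94e-07). Over the alternative settings tried, the difference of the brighter probe set stayed between 1.09 and 1.26. Cx3cl1, or fractalkine, had 8.25, 8.40 and 9.40 in knockout kidneys, against 6.94, 7.33 and 7.47 in wild-type kidneys. Knockout array 1-2, at 9.40, was the highest, and the other knockout arrays lay at or below 8.59. The log2 difference was 1.28 ± 0.13 (adjusted p = 1.3e-06), 2.43-fold. The next probe set of Cx3cl1 gave 1.32 ± 0.15 (adjusted p = 2.2e-06) without overlap. The third, 1421610_at, gave 1.17 ± 0.26 (adjusted p = 0.00462) with 7 of 9 knockout arrays above the highest wild-type array. It did not pass among females alone (1.01, adjusted p = 0.238). The last, 1441884_x_at, lay at the floor on 7 of 9 knockout arrays and on all 7 wild-type arrays and was not tested.

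Of the Csf1r ligands, Csf1 had 7.11, 7.27 and 7.93 in knockout kidneys on its brightest probe set, against 6.02, 6.48 and 6.68 in wild-type kidneys. The groups did not overlap. The mean was 7.34 ± 0.25 (SD, n = 9) in knockout and 6.45 ± 0.26 (SD, n = 7) in wild type, a log2 difference of 0.88 with a standard error of 0.12 (limma adjusted p = 4.15e-05). Of its other probe sets, 1448914_a_at gave 0.78 ± 0.13 (adjusted p = 0.000354) and 1425155_x_at gave 1.03 ± 0.20 (adjusted p = 0.00122), both without overlap. Among females alone these 2 gave 0.66 (adjusted p = 0.0644) and 0.90 (adjusted p = 0.0666). The remaining one, 1425154_a_at, had 5.78, 6.18 and 6.42 in knockout kidneys and 5.65, 5.87 and 6.41 in wild-type kidneys. Its groups overlapped almost wholly, and its log2 difference of 0.22 ± 0.14 did not pass (adjusted p = 0.373). The ending a_at marks probes shared by several transcripts of 1 gene. Which transcripts each probe set reads was not analysed here. Il34, the second ligand of Csf1r, had 6.05, 6.62 and 7.89 in knockout kidneys, against 5.07, 5.35 and 5.80 in wild-type kidneys. All knockout arrays lay above all wild-type arrays, the highest being array 1-2 and the lowest array 2-4. The mean was 6.70 ± 0.54 (SD, n = 9) in knockout and 5.36 ± 0.26 (SD, n = 7) in wild type, a log2 difference of 1.34 with a standard error of 0.20 (limma adjusted p = 0.000103).

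The knockout kidneys did not share 1 order across the 10 genes. Array 1-2 was the highest knockout array for 11 of the 19 tested probe sets, arrays 2-3 and 5-2 for 3 each and array 3-4 for 2. Probe sets of the same gene count separately in these numbers. By brightest probe set, array 1-2 was the highest knockout array for Ccl6, Cxcl1, Cxcl16, Cx3cl1 and Il34. The lowest knockout array was 2-4 for 6 probe sets, 3-3 for 4 and 4-3 for 3. Array 2-4 had the lowest Ccl2, Cxcl10 and Il34 signals of the knockouts and the highest Ccl7 signal, 5.00. Array 1-2 was also the brightest of all 16 arrays before normalization, with a trimmed mean signal of 236, and its part in these values was not tested. All 17 probe sets that were higher remained so when any single array was left out.

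**Figure D3:**
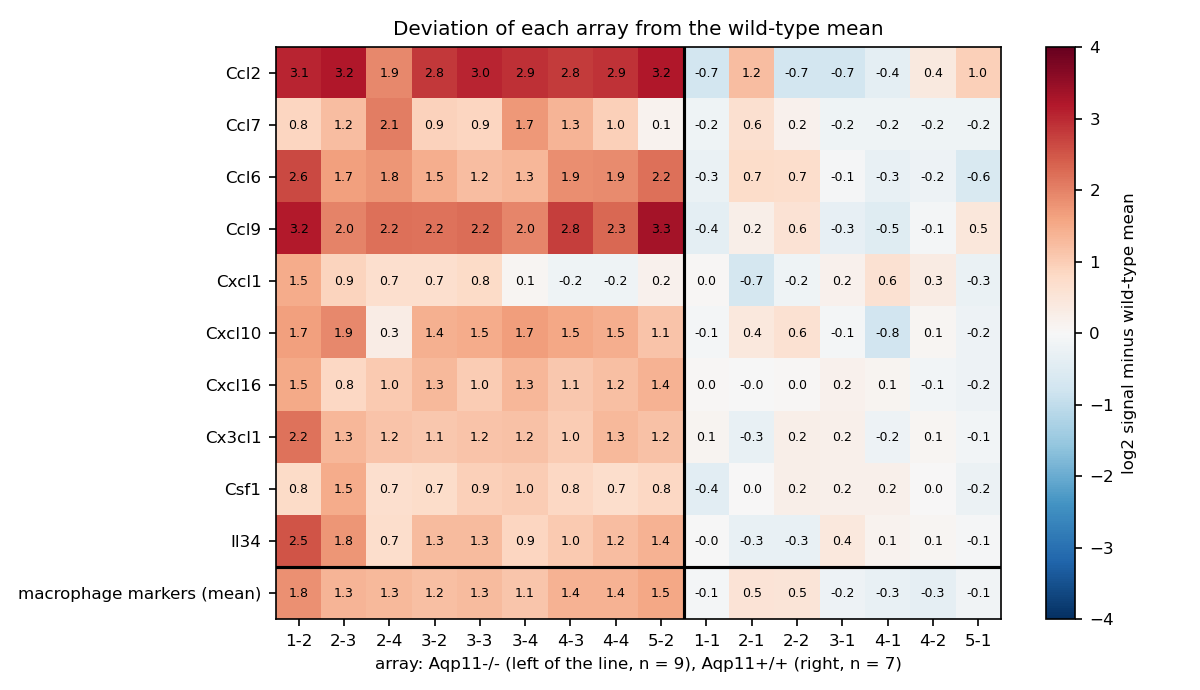
Log2 signal of the brightest probe set of each gene minus its wild-type mean, in every knockout array (left of the line, n = 9) and wild-type array (right, n = 7), with the mean of 27 macrophage markers in the bottom row. Red is above and blue below the wild-type mean; Ccl2 and Ccl9 have the darkest red cells, and array 2-4 is pale for Cxcl10.

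No difference between males and females in the effect of genotype passed the test. The genotype by sex interaction passed for 0 of 27377 probe sets in limma, with 2790 at an unadjusted p under 0.05 (10.2%) and 0.488 as the smallest adjusted p. Of the 19 tested probe sets of the 10 genes, 2 had an unadjusted p under 0.05. For Il34 these were 6.46 ± 0.30 in knockout males (SD, n = 5) and 5.55 ± 0.23 in wild-type males (SD, n = 3), and 7.01 ± 0.66 in knockout females (SD, n = 4) and 5.23 ± 0.19 in wild-type females (SD, n = 4). The knockout minus wild-type difference in males minus that in females was -0.88 (adjusted p = 0.488). The other was Cxcl1 1457644_s_at (-1.30, adjusted p = 0.489), whose difference among males alone was 1.16.

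Of the other chemokines on the array, 4 were higher in knockout kidneys and many were too dim to test. By brightest probe set, 8.44% of the 12499 genes tested were higher and 7.3% lower. The list counts here and below were not tested against these shares. Of 17 other CC ligands, 14 had a probe set, 7 were tested, and 3 were higher in knockout kidneys and 0 lower, with a median log2 difference of 0.20. Ccl5, an attractant of T cells and monocytes, had 4.93, 5.32 and 5.94 in knockout kidneys, against 2.78, 2.78 and 4.12 in wild-type kidneys. The difference was 2.21 ± 0.24 with 4 wild-type arrays at the floor (adjusted p = 2.2e-06), 0.79 with the floor at the 40th percentile and 1.32 on the log2(value + 16) scale. Ccl5 and the eosinophil attractant Ccl11 exceeded the 40th percentile on all 9 knockout arrays and on 0 wild-type arrays. They entered the test through the knockout arrays alone and had to differ, so their values are a description. Ccl12, a mouse Ccr2 ligand related to Ccl2, was higher by 1.83 ± 0.21 (adjusted p = 5.35e-06), without overlap. The difference in Ccl11 was 1.31 ± 0.25 (adjusted p = 0.00101), 0.55 with the floor at the 40th percentile (adjusted p = 0.0416), and it did not pass among males alone (1.00, adjusted p = 0.107). Ccl27a gave -0.25 and did not pass (adjusted p = 0.133). Of 13 other CXC and XC ligands, 5 were tested and 1 was higher, with a median of 0.16. It was Pf4, a chemokine of platelets and macrophages, at 8.37 ± 0.18 (SD, n = 9) in knockout and 7.59 ± 0.13 (SD, n = 7) in wild type (log2 difference 0.78, adjusted p = 1.95e-06). Another 8 were too dim to test, with the largest log2 differences in Cxcl2 (1.82) and Ppbp (1.38). For Cxcl2 all 9 knockout arrays lay above the highest wild-type array. Cxcl15 (-0.28) and Xcl1 (-0.12) were below 0. Cxcl17 (0.88, adjusted p = 0.0569), Cxcl14 (-0.27, adjusted p = 0.145) and Cxcl12 (0.16, adjusted p = 0.187) did not pass. Cxcl17 passed when knockout array 3-2 (adjusted p = 0.0363) or 4-4 (adjusted p = 0.041) or wild-type array 3-1 (adjusted p = 0.0371) was left out. However, Cxcl17 exceeded the 40th percentile on 6 knockout arrays and 1 wild-type array. It entered the test mainly through knockout arrays, so its p values are a description.

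Of the receptors named above for the chemokine members, Ccr1, Ccr2 and Cx3cr1 were higher in knockout kidneys, Cxcr3 did not pass, and Cxcr2 and Cxcr6 were too dim to test. Of 23 chemokine receptors, 10 were tested, with a median log2 difference of 0.30. Among them 3 were higher and 0 lower, against 8.44% and 7.3% of all genes tested. Ccr1, the receptor of Ccl6 and Ccl9, had 6.66, 6.85 and 7.18 in knockout kidneys, against 4.21, 5.27 and 5.35 in wild-type kidneys. The groups were far apart, and the difference was 1.80 ± 0.15 (limma adjusted p = 4.35e-08), 3.48-fold. Ccr2, the receptor of Ccl2 and Ccl7 and a mark of inflammatory monocytes, had 4.59, 5.82 and 6.74 in knockout kidneys, against 2.78, 4.06 and 4.91 in wild-type kidneys. In it 8 of 9 knockout arrays lay above the highest wild-type array, and the difference was 1.78 ± 0.29 (adjusted p = 0.000253). It was 1.17 with the floor at the 40th percentile, which Ccr2 exceeded on 9 knockout arrays and 1 wild-type array. Cx3cr1, the fractalkine receptor, had 7.21, 7.35 and 7.54 in knockout kidneys, against 5.76, 6.24 and 6.93 in wild-type kidneys. Its groups did not overlap, and the difference was 1.00 ± 0.15 (adjusted p = 0.000108), falling to 0.77 among females alone, where it did not pass (adjusted p = 0.115). The Cxcl10 receptor Cxcr3 gave 0.60 ± 0.22 and did not pass (adjusted p = 0.0897), though it did without wild-type array 4-1 (0.74, adjusted p = 0.0326) and as the mean of its probe sets (adjusted p = 0.0352). Cxcr3 exceeded the 40th percentile on 8 knockout arrays and 2 wild-type arrays. Like Ccr2, it entered the test mainly through knockout arrays, so the p values of both are a description. Cxcr2, which binds Cxcl1, lay at the floor on 8 of 9 knockout arrays and 6 of 7 wild-type arrays. The Cxcl16 receptor Cxcr6 was also too dim to test, with means of 3.97 ± 0.66 in knockout and 3.19 ± 0.40 in wild type (SD).

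Csf1r, the shared receptor of Csf1 and Il34, had 10.31, 10.52 and 10.86 in knockout kidneys, against 9.66, 9.85 and 10.27 in wild-type kidneys. All knockout arrays lay above all wild-type arrays. The mean was 10.53 ± 0.18 (SD, n = 9) in knockout and 9.91 ± 0.24 (SD, n = 7) in wild type, a log2 difference of 0.62 (limma adjusted p = 0.000127), 1.54-fold. On the deposited scaling, without normalization between arrays, Csf1r gave 0.64 and did not pass (adjusted p = 0.09), and among females alone 0.50 (adjusted p = 0.0906). Of 15 receptors and signalling proteins of macrophage growth factors, 10 were tested, and 6 were higher and 0 lower, with a median of 0.74. Among all genes tested, 8.44% were higher and 7.3% lower. The adaptor Tyrobp was higher by 1.62 ± 0.20 (adjusted p = 1.32e-05), Sdc1, a proteoglycan that binds Il34, by 0.74 ± 0.10 (adjusted p = 3.66e-05), and Spi1, the transcription factor that drives Csf1r, by 0.75 ± 0.14 (adjusted p = 0.00113). With the deposited scaling 1 of the 10 passed. Of 18 other growth factors and cytokines, 6 were tested and 1 passed: the epithelial and stromal alarmin Il33, with 8.28 ± 0.23 (SD, n = 9) in knockout and 7.34 ± 0.24 (SD, n = 7) in wild type (log2 difference 0.94, adjusted p = 6.14e-06). Il18 (0.39), Tslp (0.32) and Kitl (-0.07) did not.

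**Figure D4:**
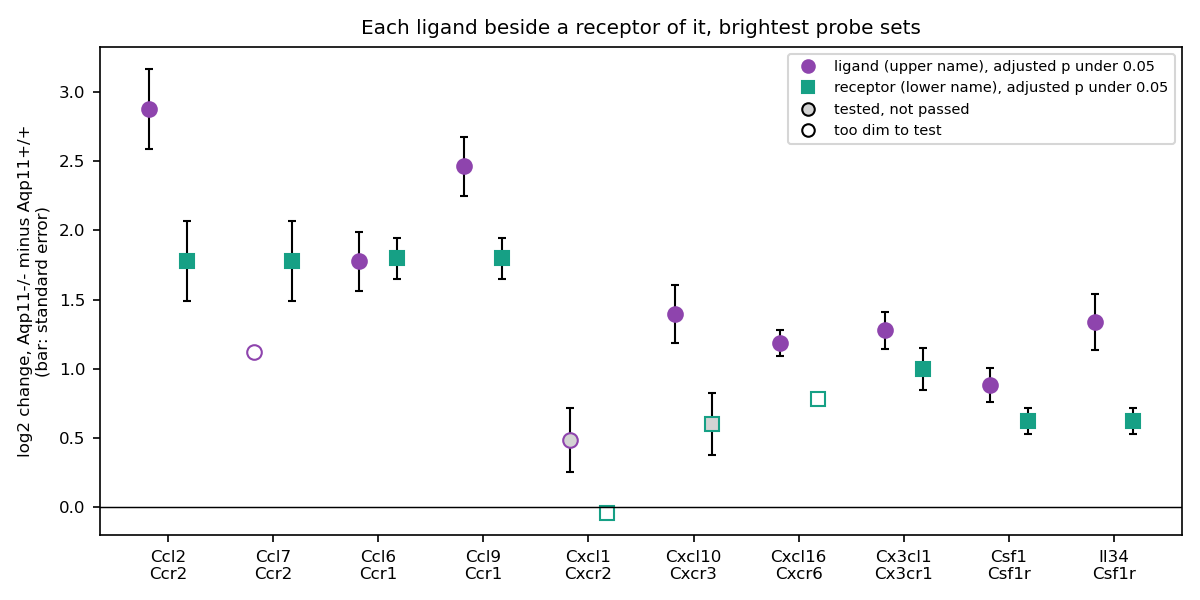
Log2 difference (knockout minus wild type, vertical axis) of each ligand (purple circles) beside that of a receptor of it (green squares), with the standard error from limma as the bar; grey symbols were tested and did not pass, open ones were too dim to test. Ccr1, Ccr2, Cx3cr1 and Csf1r are above 0 with an adjusted p under 0.05, and Cxcr2 lies at -0.04.

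The proteases and regulators that release Cx3cl1, Cxcl16 and Csf1 from the membrane were bright enough to test in all 8 cases. Of these, 3 were higher and 0 lower, against 8.44% and 7.3% of all genes tested, with a median log2 difference of 0.12. Ctss, a cathepsin that cleaves fractalkine and is itself abundant in macrophages, was higher by 1.84 ± 0.17 (adjusted p = 2.44e-07), Mmp14 by 0.47 ± 0.09 (adjusted p = 0.000825) and Rhbdf2, a partner of Adam17, by 0.62 ± 0.15 (adjusted p = 0.00687). Timp3, an inhibitor of Adam17, gave -0.22 and did not pass (adjusted p = 0.0621). It passed as lower without knockout array 2-4 (adjusted p = 0.0285) or 5-2 (adjusted p = 0.0347), without wild-type array 4-2 (adjusted p = 0.0409), and with the first sample number as a replicate block (-0.21, adjusted p = 0.0401). Adam10 (0.02) and Adam17 (0.09), the main sheddases, did not pass. Without normalization between arrays 1 of the 8 passed.

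Of 18 genes of the NF-kB pathway and its feedback, 16 were tested, and 9 were higher and 0 lower, with a median of 0.37. The shares over all genes tested were 8.44% higher and 7.3% lower. Bcl3, a nuclear partner of NF-kB subunits, was 6.44 ± 0.34 (SD, n = 9) in knockout and 4.73 ± 0.55 (SD, n = 7) in wild type, a difference of 1.71 (adjusted p = 7.44e-06). Icam1, the adhesion molecule for leukocytes, was higher by 0.96 ± 0.13 (adjusted p = 2.19e-05), the inhibitor Nfkbie by 1.04 ± 0.18 (adjusted p = 0.000557) and Birc3 by 0.82 ± 0.14 (adjusted p = 0.0003). Birc3 did not pass as the mean of its probe sets (0.32, adjusted p = 0.216). Nfkbia (0.13, adjusted p = 0.198) and Tnfaip3 (0.205, adjusted p = 0.417) were among the genes that did not pass in limma. Of 23 interferon genes and factors that induce Cxcl10, 18 were tested, and 7 were higher and 0 lower, with a median of 0.33. Irf8, a factor of the macrophage lineage, was higher by 0.50 ± 0.09 (adjusted p = 0.000609), the interferon-stimulated Oasl2 by 0.94 ± 0.17 (adjusted p = 0.0007), Irf9 by 0.55 ± 0.11 (adjusted p = 0.00262) and Gbp2 by 0.55 ± 0.13 (adjusted p = 0.00827). Those that did not pass included Irf7 (0.92, adjusted p = 0.0912), Ifit1 (0.66, adjusted p = 0.128), Ifit2 (0.12, adjusted p = 0.576) and Ifit3 (-0.036, adjusted p = 0.907). With signals left on the deposited scaling, 3 of the NF-kB genes and 1 of the interferon genes passed, and Birc3, Irf8, Irf9 and Gbp2 were not among them. Nfkbie did not pass among females alone (0.89, adjusted p = 0.14).

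Markers of macrophages were also higher in knockout kidneys. Of 29, 27 were tested, and 26 were higher in knockout kidneys and 0 lower, with a median log2 difference of 1.37. Their mean log2 signal was between 7.59 and 8.31 in knockout kidneys, with a median of 7.82, and between 6.13 and 7.01 in wild-type kidneys, with a median of 6.35. Wild-type arrays 2-1 (7.01) and 2-2 (6.99) stood apart from the other 5, which lay between 6.13 and 6.40, and without these arrays 26 markers were again higher, as were 17 member probe sets. None of the macrophage markers was at the floor on every array. The complement gene C1qa was 8.90 ± 0.29 (SD, n = 9) in knockout and 7.18 ± 0.22 (SD, n = 7) in wild type (log2 difference 1.73, adjusted p = 4.42e-09). Fcgr3 (1.67), Ly86 (1.54) and the mannose receptor Mrc1 (1.02) had adjusted p values of 4.47e-09, 1.07e-08 and 1.57e-08. The part of macrophage number in the chemokine values was not tested. Csf1r, Tyrobp, Spi1 and Ctss stand in this list and in those above.

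Other cell type lists were read in the same way, beside 8.44% of all genes tested higher and 7.3% lower. Of 6 tested monocyte markers, 4 were higher and 0 lower, with mean log2 signals of 8.26 to 9.05 in knockout kidneys and 7.71 to 8.0 in wild-type kidneys. They were Ccr2, F13a1 (1.14), Fn1 (0.46) and Plac8 (0.81), of which Fn1 is also made by many other cells and did not pass on the deposited scaling (0.44, adjusted p = 0.209). The 4 tested neutrophil markers had mean log2 signals of 5.73 to 6.43 in knockout kidneys and 4.35 to 6.32 in wild-type kidneys. Wild-type arrays 2-1 (6.32) and 2-2 (5.88) overlapped the knockout arrays, and the other 5, between 4.35 and 5.51, lay below them all. S100a8 (1.29, adjusted p = 0.0065) and S100a9 (0.75, adjusted p = 0.0354) were higher, and without wild-type arrays 2-1 and 2-2 so was Csf3r (1.19, adjusted p = 0.0378), which with them gave 0.79 (adjusted p = 0.185). Csf3r exceeded the 40th percentile on 8 knockout arrays and 3 wild-type arrays. It entered the test mainly through knockout arrays, so its p values are a description. S100a8 did not pass on the deposited scaling (adjusted p = 0.0571) or among females alone (adjusted p = 0.13). S100a9 did not pass when knockout array 1-2, 2-4, 3-4 or 4-3 or wild-type array 1-1, 3-1, 4-1, 4-2 or 5-1 was left out, where its adjusted p ran up to 0.0862. Neither of the 2 tested T and NK cell markers passed in limma, Zap70 (0.42) and Cd8a (-0.15), nor did either of the 2 tested B cell markers, Ighm (0.38) and Cd79b (-0.13). The unadjusted p was under 0.05 for 1 of these 4 genes, and Ighm passed without wild-type array 5-1 (adjusted p = 0.0316). Among 8 endothelial markers 0 were higher and 3 were lower (Emcn -0.37, Pecam1 -0.21 and Tek -0.31), with a median of -0.18. Tek did not pass without knockout array 2-3 (adjusted p = 0.0501) or wild-type array 1-1 (adjusted p = 0.0632), 2-1 (adjusted p = 0.0514) or 5-1 (adjusted p = 0.0548). Of 7 fibroblast markers, Col1a1 (0.50) and Col1a2 (0.20) were higher. Col1a2 did not pass when knockout array 2-4, 3-4, 4-3, 4-4 or 5-2 or wild-type array 1-1, 2-1, 2-2 or 3-1 was left out, with an adjusted p of up to 0.0811. Col3a1 (0.12) passed without wild-type array 2-1 (adjusted p = 0.0157). Of 9 tubule and podocyte markers 1 was higher and 5 lower, with mean log2 signals of 10.78 to 11.13 in knockout kidneys and 11.11 to 11.28 in wild-type kidneys. All 7 injured tubule markers were higher, with means of 8.92 to 9.51 in knockout and 6.60 to 7.34 in wild type, Havcr1 by 5.26 and Krt20 by 3.28 on the log2 scale with some wild-type arrays at the floor, and Lcn2 by 2.18. With the floor at the 40th percentile Havcr1 gave 4.05 and Krt20 2.65, and on the log2(value + 16) scale 4.06 and 2.39. Havcr1 exceeded that percentile on 0 wild-type arrays and Krt20 on 2. The part of these cells in the chemokine values was not tested.

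Within the knockout arrays Ccl6 and Ccl9 passed in correlation with the macrophage level, the mean of the 27 tested markers, and the other members did not. The correlations of different genes were not tested against each other. Over the 9 knockout arrays Ccl6 had Pearson's r = 0.956 (exact permutation p = 0.000163, adjusted p = 0.00163 over 10 relations) and Spearman's rho = 0.917 (exact permutation p = 0.00131). For Ccl9, r was 0.838 (exact permutation p = 0.0033, adjusted p = 0.0165) and rho was 0.867 (exact permutation p = 0.00451). Leaving out arrays 1-2 and 3-4, the farthest from the median macrophage level, r was 0.911 for Ccl6 and 0.836 for Ccl9, and with these 7 arrays 0 of the 10 relations passed. The relation of Ccl9 also did not pass without array 3-4 (adjusted p = 0.0593) or array 4-3 (adjusted p = 0.0515). Cx3cl1 had r = 0.81 (exact permutation p = 0.0393, adjusted p = 0.0983) with rho = 0.45 (exact permutation p = 0.23), and r = 0.169 without those arrays. Il34 had r = 0.799 (exact permutation p = 0.0195, adjusted p = 0.0651) with rho = 0.517 (exact permutation p = 0.162), and r = 0.168 without them. Both relations rest on those arrays. The other 6 had r between -0.475 (Ccl7) and 0.441 (Cxcl16) and did not pass. Across all genes tested the median r with the macrophage level was -0.057, and r was 0.5 or more for 10.9% of genes, against 4 of the 10 here. On the deposited scaling, where arrays differ in brightness, 9 of the 10 relations passed. Over the 7 wild-type arrays after quantile normalization, r was computed without a p. It was 0.89 for Ccl6, 0.869 for Ccl7, 0.808 for Cxcl10 and 0.669 for Ccl9, but -0.814 for Il34 and -0.809 for Cxcl1. For Ccl2, Cxcl16, Cx3cl1 and Csf1 it was between -0.098 and 0.182. Wild-type arrays 2-1 and 2-2 had macrophage levels of 7.01 and 6.99, against 6.13 to 6.4 for the other wild-type arrays. They were also the highest wild-type arrays for Ccl6, Ccl7 and Cxcl10 and the lowest for Il34. The wild-type r values rest largely on this contrast, and no r without these arrays is given. Cxcl1 stands in these relations by its brightest probe set, 1441855_x_at.

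**Figure D5:**
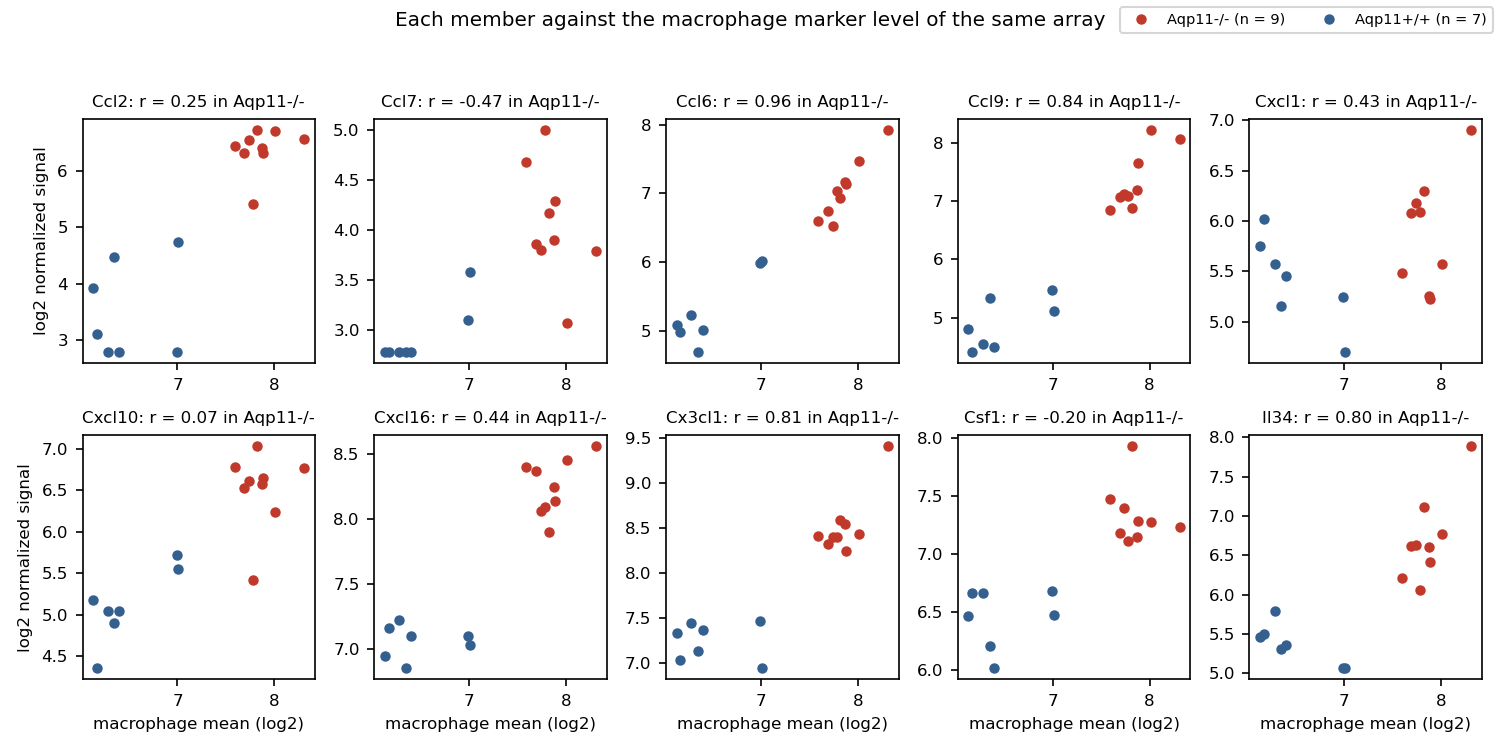
Log2 signal of the brightest probe set of each gene (vertical axis) against the mean log2 signal of 27 macrophage markers (horizontal axis) in each knockout array (red, n = 9) and wild-type array (blue, n = 7), with Pearson's r over the knockout arrays in each title. Ccl6 and Ccl9 climb along the knockout arrays, while Cxcl10 shows no slope there (r = 0.069); array 1-2 is the rightmost point.

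The genes whose array-to-array pattern was most like that of 4 of the members were sought by Pearson's r of the deviations from the genotype means over all 16 arrays, as a description. For Ccl2 they were Nop2 (0.749), Lmln (0.741), Dip2b (0.726), Elmo2 (0.723) and Cct7 (0.715), none of which differed between genotypes at an adjusted p under 0.05. The nearest to Cxcl10 were Eepd1 (0.856), C130050O18Rik (0.78), Ero1b (0.773), Gm527 (0.772) and Stx11 (0.763). Of these only Stx11, a syntaxin of immune cells, was higher in knockout kidneys (1.08, limma adjusted p = 0.00224). Cx3cl1 lay closest to Sat1 (0.917), Tnfsf10 (0.867), Arg2 (0.843), Capg (0.84) and Fga (0.837). Sat1, which acetylates polyamines, was higher by 0.45 (adjusted p = 0.00296), Arg2, the mitochondrial arginase, by 0.67 (adjusted p = 0.0163) and Capg, an actin-capping protein of macrophages, by 0.70 (adjusted p = 0.000675). Csf1 lay closest to Pbx2 (0.837), Ncoa5 (0.808), Garre1 (0.795), Slc38a1 (0.783) and Scd2 (0.777), of which Slc38a1, an amino acid transporter, was higher by 0.29 (adjusted p = 0.0242). No member was among the nearest genes of another.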

How the data were processed

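Kidney RNA of 16 pups, each a separate animal per the labels, was hybridised to 1 array each. The authors deposited linear signal intensity, and the submitters' processing notes name GCOS 1.3. Sources used here do not state how signals were summarised or scaled. The intensities of 45037 probe sets, leaving out 64 controls, were quantile normalized, raised to a floor at the 20th percentile of all values (6.89, or 2.78 in log2) and log2 transformed. The floor understates differences of dim probe sets. Quantile normalization assumes that arrays share 1 distribution. Gene names came from the platform annotation, in which 34958 name 1 gene and 932 several; the 9211 it does not list are unnamed here. The genotypes were compared in limma 3.58.1 (R 4.3.3) by lmFit with genotype as its single term and eBayes with trend, with Benjamini-Hochberg adjustment over all probe sets tested at 0.05. The fit was first tested on simulated data.

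The members and the 17 gene lists (8 of pathways, 9 of cell markers) were chosen with earlier results of these data known. Named genes are Aqp11, every member probe set, from each list up to 4 tested genes with the smallest p, and the members' receptors. The 5 genes nearest to each of Ccl2, Cxcl10, Cx3cl1 and Csf1 are also named. Adam10 and Adam17 were added as the main sheddases after their values were seen. Nfkbia, Tnfaip3, Irf7, Ifit1, Ifit2 and Ifit3, which did not pass, were also added after their values were seen. Alternatives were other normalizations, floors, filters, probe set summaries, covariates and variance models, each sex alone and each array left out. Leaving out wild-type arrays 2-1 and 2-2 was chosen after seeing the data. Figures were drawn with matplotlib 3.10.9.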

Additional observations from a re-analysis of the deposited data

Results flagged for a closer look

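Of the 41 groups of member values in which a single array could be compared with the rest of its genotype (each probe set in knockout and in wild type), 7 held an array far from the others. Chance alone marks about 1 in 20 such groups where these are independent and hold no ties. Here groups share arrays and some values lie at the floor, so that rate need not apply. Among knockout arrays, 2-4 had the lowest Ccl2, at a log2 signal of 5.42 with the next at 6.32, and the lowest Cxcl10, at 5.41 with the next at 6.24. Knockout array 1-2 was the highest for the dimmer Ccl6 probe set (7.13, next 5.94), for the brightest Cx3cl1 probe set (9.40, next 8.59) and for the Cx3cl1 probe set that lay at the floor on most arrays (3.68, next 2.87). In Csf1, knockout array 2-3 stood at 7.93 on the brightest probe set, above the next at 7.47. For Ccl7, wild-type array 2-1 stood at 3.58, above the next wild-type array at 3.10.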

How the results depend on the processing

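The count of 17 member probe sets higher in knockout kidneys held at 17 with any array left out and was 9 with the filter at the 60th percentile, where fewer probe sets are tested; by brightest probe set it held at 8 genes with any array left out. Over all alternatives, single member values kept their call in 633 cases, 3 no longer passed (all among females alone) and 1 newly passed (Cxcl1 as the mean of its probe sets). The number of probe sets that differed between genotypes, 3195, was 573 on the deposited scaling, 1838 in males alone and 767 in females alone, and 2568 to 3193 with 1 array left out. On the deposited scaling 65.4% of the calls were higher, against 53.2% after quantile normalization. Members correlated with the macrophage level numbered 9 on that scaling, 0 without the 2 farthest arrays and 1 to 2 with 1 array left out; there Csf1 turned from -0.201 to 0.769 (adjusted p = 0.0166), and the cause was not tested. With the first sample number as a replicate block, 3919 probe sets differed, 17 member probe sets were higher, and no member call changed. That number takes 5 values, as many as there were breeding pairs, and each value holds arrays of both genotypes. The labels do not say what it marks, so a litter or pair effect could not be assigned. Of 13 pairs of a knockout and a wild-type array that share it, 4 had deviations with r over 0.1 (median 0.04). With the block, with 1 value a gene, with array brightness as a covariate or with array weights, 1 sheddase regulator (Timp3) was lower. Lists of few tested genes moved by 1 call with 1 array left out: 1 to 2 for the CXC ligands, neutrophil markers and fibroblast markers, and 0 to 1 for B cell markers. On the deposited scaling the calls were 0 for neutrophil and endothelial markers, 1 for fibroblast markers and 2 lower for kidney markers, against 2, 3, 2 and 5, and for the pathway lists 1 for growth factor receptors, 1 for sheddases, 3 for NF-kB and 1 for interferon genes, against 6, 3, 9 and 7. Among females alone they were 17 for macrophage markers, 4 for NF-kB, 2 for interferon and growth factor receptor genes, and 1 for sheddases, with 0 for neutrophil, endothelial and fibroblast markers and 3 lower for kidney markers. Among males alone they were 2 for interferon genes, 1 each for neutrophil and endothelial markers and 3 lower for kidney markers. With no filter 5 CC ligands, 3 CXC ligands and 2 other cytokines were higher, and with the filter at the 60th percentile 0 CC ligands. Values near the floor limit what the dim members can show.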
